A study of Mus musculus with 5 samples.

Results

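The step from azoxymethane alone to azoxymethane followed by dextran sulfate sodium was described in mouse colon by setting the week 5 library (W5) against the week 2 library (W2). These were the 2 libraries of the 5 in the series that lie on either side of the first exposure to dextran sulfate sodium, and they were chosen by their labels alone. Of the 52382 genes in the table, 14720 had a mean of at least 1 CPM (counts per 1000000 counted reads) over the 5 libraries and were compared. At that boundary, 3110045C21Rik was kept with a mean of 1.0001 CPM and Gm10313 was left out with 0.9997 CPM. Azoxymethane (AOM) is a mutagen that acts on the colon, and dextran sulfate sodium (DSS) in the drinking water damages the colonic epithelium, so that the sequence of both gives a model of colitis-associated cancer.

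W5 was labelled AOM and DSS. Its mice had AOM at 8.5 mg per kg by intraperitoneal injection on days 1 and 8 and then, after a further week, 1.5% DSS in the drinking water for 7 days, followed by plain water for 14 days before the next cycle. W2 was labelled AOM, with the same injections and no DSS in its label. Both came from male wild-type C57BL/6 mice that were 8 to 12 weeks old when the model was set up. An untreated library (W0) and later AOM and DSS libraries (W8 and W11) are quoted as levels beside the comparison and are not its baseline. From each group 3 mice were selected, and pooling of their RNA is not mentioned. The day of the cycle on which the W5 mice were killed is not given either.

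With 1 library on each side there was no replicate check and no test, so a gene is said to have risen, fallen or changed where the 2 libraries differed by 2-fold or more on the log2(CPM + 1) scale. Differences between these 2 libraries hold the treatment, 3 further weeks of age and any difference between mice or preparations, and these cannot be told apart. Counting error is given as exact (Clopper-Pearson) 95% intervals of the CPM ratio, which cover counting error only. The samples are labelled as colon tissue and also as intestinal epithelial cells. Defining genes of smooth muscle (Acta2 at 1737 CPM in W5 and 1273 CPM in W2), B cells (Cd79a at 52.8 and 48.6 CPM in W5 and W2) and epithelium (Epcam at 1124 and 1954 CPM in W5 and W2) were all present, so both libraries held RNA of more than the epithelium. In such bulk RNA, fewer cells of a type and less RNA per cell cannot be told apart.

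W5 held 20379429 counted reads and W2 held 14640851, against 13389184 to 14945610 in the other libraries. Mitochondrial-encoded genes took 2.47% of the counts in W5 and 4.87% in W2, with 1.86% to 2.83% in the other libraries. Immunoglobulin genes took 1.78% in W5 and 0.465% in W2, and ribosomal protein genes took 4.66% in W5 and 6.2% in W2. At W5, 1389 genes rose (9.44% of those tested) and 657 fell (4.46%), which is 13.9% changed in either direction. Counts of list members below are to be read against these shares. The median log2 fold of all genes tested was 0.15, and 8858 genes (60.2%) lay above 0. Risers were 67.9% of the changed genes. Centring the folds on their median gave 1033 risers and 997 fallers (50.9% risers), and median-of-ratios scaling gave 1003 and 1020 (49.6% risers), so the balance of directions depends on the scaling. Risers near the limit lost their call when the folds were centred, among those described here Duoxa2, Il11, Il4ra, Cdx2 and C1galt1c1. Just inside the 2-fold limit lay Acsl3 (log2 1.0001) and Boc (-1.0006), and just outside it Ebf4 (0.9999) and Macrod1 (-0.9982).

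**Figure D1:**
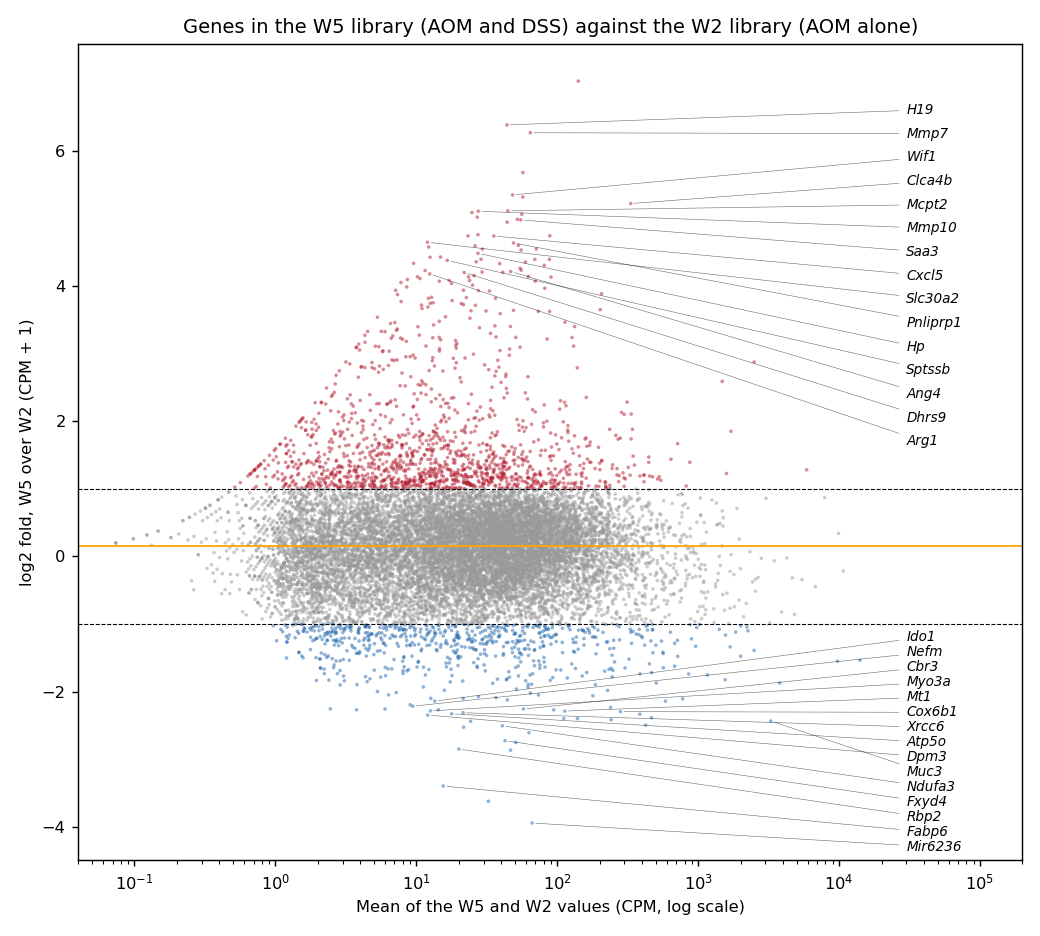
Each point is a gene tested, with the mean of its W5 and W2 values (CPM, log scale) across and its log2 fold of W5 over W2 upward. Red points rose and blue points fell by 2-fold or more (dashed lines), the orange line is the median of 0.15, and the named points are the 15 largest rises, from Arg1 (4.18) to H19 (6.38), and the 15 largest falls, from Ido1 (-2.14) to Mir6236 (-3.94), among genes of at least 5 CPM in either library. Unnamed points beyond them are immunoglobulin segments, clone-named loci and other kinds left out of the naming rule, and genes at 0 in both libraries are not drawn.

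Injured colon is closed by a sequence of events that leaves marks in RNA. Neutrophils and monocytes enter, the epithelium secretes antimicrobial and acute phase proteins, and matrix metalloproteinases cut collagen and other matrix so that cells can move. Fibroblasts lay down new matrix, and Wnt signals from the stroma drive the crypt stem cells. In mouse models of colon cancer the same Wnt pathway is often held on by mutation, and it then induces its own inhibitors.

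Matrix metalloproteinases were among the largest rises. Of the 23 genes listed, 15 passed the level filter, 9 of these rose and none fell, with a median log2 fold of 1.58 (1.87 with genes at 0 set to their lower bound), against 0.15 for all genes tested. Mmp7 (ENSMUSG00000018623), the matrilysin that epithelial and tumour cells secrete, had 128 CPM at W5 and 0.683 CPM at W2, a ratio of 188 (102 to 392). Its level in week order was 0.0726, 0.683, 128, 556 and 293 CPM. Mmp10 (ENSMUSG00000047562), a stromelysin of wound-edge epithelium, had 54.5 CPM at W5 and 0.615 CPM at W2, a ratio of 88.6 (46.5 to 194).

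The other risers include enzymes of stromal and white blood cells. The collagenase Mmp13 had 39.7 CPM at W5 and 2.05 CPM at W2 (log2 3.74). Mmp9, the gelatinase stored by neutrophils, had 27.1 CPM at W5 and 1.98 CPM at W2 (log2 3.24). Mmp3, a stromelysin of fibroblasts, had 35.9 CPM at W5 and 4.92 CPM at W2 (log2 2.64). The macrophage elastase Mmp12 rose by 2.52, although its annotated exons overlap those of Mmp1b. Mmp2, the gelatinase of stromal cells, had 187 CPM at W5 and 50.5 CPM at W2 (log2 1.87), but W0 already held 122 CPM, and against W0 it was not called. Mmp28 (1.58) had the same pattern, with 18.3 CPM at W5, 5.46 CPM at W2 and 12.3 CPM at W0. Mmp8, the neutrophil collagenase, was at 1.28 CPM at W5 and 0 at W2 (log2 1.19), and lost its call with a pseudocount of 5.

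The 6 members that did not pass were Mmp25 (0.80), Mmp14 (0.41), Mmp15 (0.38), Mmp11 (0.20), Mmp23 (-0.26) and Mmp17 (-0.74). Mmp14, the membrane-bound activator of Mmp2, had 206 CPM at W5 and 155 CPM at W2. The 8 members that failed the level filter had at most 1.28 CPM in either library, which was Mmp16 at W5. Of 5 inhibitors of these enzymes, Timp2 had 163 CPM at W5 and 114 CPM at W2 (log2 0.50) and Reck 9.32 and 8.54 CPM at W5 and W2 (0.11), and neither was called. Timp1 is listed at 0 in all 5 libraries, as are other genes that colon tissue uses, so such a 0 is not read as absence.

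Mmp7, Mmp10, Mmp3 and Mmp13 lie in a cluster of these genes on chromosome 9, and their promoters are shown because these members moved together and share a short motif. Sequences are from RefSeq on GRCm38.p6, all on the plus strand, from 250 bases before to 50 bases after the annotated start, at chr9:7691840-7692139 (Mmp7), chr9:7502092-7502391 (Mmp10), chr9:7445572-7445871 (Mmp3) and chr9:7272264-7272563 (Mmp13). Capitals mark TGANTCA, the motif bound by AP-1 (Fos and Jun family) factors, which was searched on both strands and reads the same on each apart from its N.
Mmp7: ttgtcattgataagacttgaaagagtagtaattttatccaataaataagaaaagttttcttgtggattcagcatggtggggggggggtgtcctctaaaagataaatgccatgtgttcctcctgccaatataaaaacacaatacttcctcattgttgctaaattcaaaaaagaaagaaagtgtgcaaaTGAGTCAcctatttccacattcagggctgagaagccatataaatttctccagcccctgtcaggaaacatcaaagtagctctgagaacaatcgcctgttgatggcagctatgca
Mmp10: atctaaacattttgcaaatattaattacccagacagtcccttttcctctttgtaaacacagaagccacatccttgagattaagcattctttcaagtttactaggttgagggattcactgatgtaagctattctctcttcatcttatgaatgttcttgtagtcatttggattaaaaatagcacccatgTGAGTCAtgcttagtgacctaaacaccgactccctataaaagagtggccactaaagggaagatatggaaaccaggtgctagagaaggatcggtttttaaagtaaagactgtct
Mmp3: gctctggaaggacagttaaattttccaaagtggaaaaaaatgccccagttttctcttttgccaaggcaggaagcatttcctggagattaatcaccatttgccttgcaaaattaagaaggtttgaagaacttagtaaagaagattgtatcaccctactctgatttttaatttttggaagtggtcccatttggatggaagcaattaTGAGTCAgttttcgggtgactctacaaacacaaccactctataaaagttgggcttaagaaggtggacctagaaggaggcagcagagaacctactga
Mmp13: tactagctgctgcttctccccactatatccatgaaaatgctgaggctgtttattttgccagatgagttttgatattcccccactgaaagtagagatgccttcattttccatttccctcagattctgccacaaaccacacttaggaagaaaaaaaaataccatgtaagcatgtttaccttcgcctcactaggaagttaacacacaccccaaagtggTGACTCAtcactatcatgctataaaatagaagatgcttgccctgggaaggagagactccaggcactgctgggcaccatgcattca

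The motif begins 63 bases before the start in Mmp7 and in Mmp10, 46 bases before it in Mmp3 and 35 bases before it in Mmp13. A further Mmp7 promoter entry, which starts downstream, lacks it. The motif is in 7.81% of all 32851 promoters of this length (2565 promoters). It is in 8 of the 21 matrix metalloproteinase promoters (38.1%). Counted by gene, where any promoter of the gene may hold it, it is in 8 of the 18 that have a promoter entry (44.4%). Of the 9 members that rose, 7 have an entry and 5 of those (71.4%) hold the motif: the 4 shown and Mmp12. Mmp8, which is also on chromosome 9, and Mmp28 rose and lack it. Mmp1a, Mmp1b and Mmp20 hold it too and had 0 to 0.0981 CPM in either library. Since these members were picked by their fold and neighbour each other, the shares are a description and say nothing about binding. Among AP-1 subunits, Jun was at 119 CPM at W5 and 248 CPM at W2 (log2 -1.05) and Fos was at 258 CPM at W5 and 390 CPM at W2 (-0.59).

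Antimicrobial and acute phase genes had the largest list median, 2.25, with 15 of 20 tested members up and none down. Saa3 (ENSMUSG00000040026), an acute phase apolipoprotein, had 108 CPM at W5 and 2.46 CPM at W2, a ratio of 43.8 (31.6 to 62.7). Hp, the hemoglobin scavenger haptoglobin, had 53.3 CPM at W5 and 1.43 CPM at W2 (log2 4.48). Lcn2, which sequesters bacterial iron carriers, had 82.9 CPM at W5 and 9.02 CPM at W2 (3.07), and Lrg1, an acute phase glycoprotein, had 70.8 CPM at W5 and 7.72 CPM at W2 (3.04). The lectins Reg3b (10.6 CPM at W5, 0 at W2) and Reg3g (11.9 CPM at W5, 0.82 CPM at W2) rose by 3.54 and 2.82, and being close paralogs they can share reads. The oxidase Duox2 (1.37) and its maturation factor Duoxa2 (1.07) rose, as did complement C3 (1.48).

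For some of these genes W2 lay far below the untreated library. Ang4 (ENSMUSG00000060615), a microbicidal ribonuclease of Paneth and goblet cells, had 89.6 CPM at W5 and 3.89 CPM at W2 (log2 4.21), but W0 held 131 CPM. Retnlb, a goblet cell antibacterial protein, had 21.8 CPM at W5 and 6.15 CPM at W2 (1.67), with 41.8 CPM at W0. Saa3, Hp, Lcn2 and Lrg1, in contrast, had 2.03, 1.38, 6.46 and 5.08 CPM at W0, so that W2 and W0 were both low. The members that did not pass include Lypd8, a mucus-layer protein that binds flagella, with 9925 CPM at W5 and 11540 CPM at W2 (-0.22), and Pglyrp1, which binds peptidoglycan (-0.12).

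**Figure D2:**
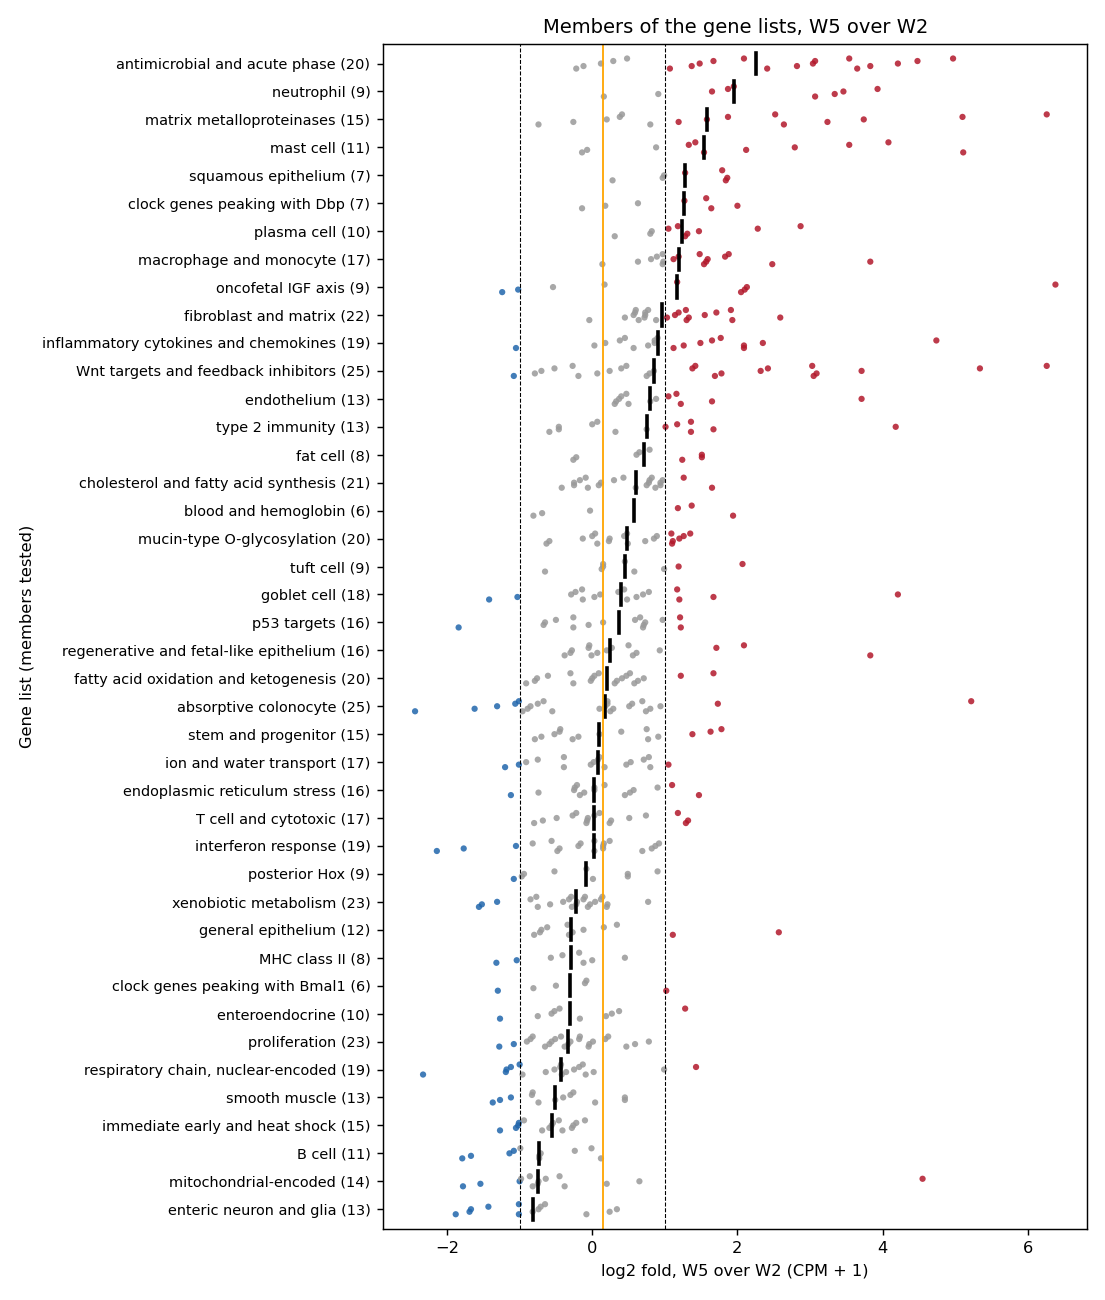
Each point is a tested member of the gene list named at the left, placed by its log2 fold of W5 over W2, for the 42 lists with at least 6 tested members, whose number is in brackets. Red points rose and blue points fell by 2-fold or more (dashed lines), black bars are list medians, and the orange line is the median of all genes tested (0.15); the lists run from antimicrobial and acute phase genes (median 2.25) to enteric neuron and glia genes (-0.82).

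Neutrophil genes had a median of 1.95, with 7 of 9 tested members up and none down. S100a8, a subunit of the neutrophil calcium-binding protein calprotectin, had 14.3 CPM at W5 and 0 at W2, and its partner S100a9 had 13.7 CPM at W5 and 0.342 CPM at W2 (log2 3.46). Padi4, which citrullinates histones, had 14 CPM at W5 and 0.478 CPM at W2 (3.34). The receptors Csf3r (1.95) and Il1r2 (1.65) also rose. Ly6g was at 155 CPM at W5 and 139 CPM at W2 (0.16), and Ltf at 5.25 and 2.32 CPM at W5 and W2 (0.91). The granule genes Mpo and Elane, which neutrophils transcribe in the bone marrow, were at or near 0, at no more than 0.294 CPM.

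The chemokine that attracts neutrophils showed one of the largest single rises. Cxcl5 (ENSMUSG00000029371) had 69.4 CPM at W5 and 1.64 CPM at W2, a ratio of 42.3 (28.3 to 66.3). Of the 19 cytokine and chemokine genes tested, 9 rose and 1 fell, with a median of 0.90. Il1b had 31.5 CPM at W5 and 5.4 CPM at W2 (log2 2.35), and Nos2, the inducible nitric oxide synthase, had 53.8 CPM at W5 and 11.9 CPM at W2 (2.09). Cxcl2 (1.49), the monocyte attractant Ccl7 (1.26) and Il11 (1.12) rose. Ccl20, which attracts cells with the receptor Ccr6, had 5.84 CPM at W5 and 13.1 CPM at W2 and fell by 1.05. Tnf was at 2.06 CPM at W5 and 1.71 CPM at W2, and Cxcl9, an interferon-induced chemokine, at 24.5 and 24 CPM at W5 and W2.

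Genes of mast cells were higher, and Mcpt2 and Mcpt1 had the largest log2 folds of the list. Of 11 tested, 8 rose and none fell, with a median of 1.54. Mcpt2 (ENSMUSG00000022226) had 87.7 CPM at W5 and 1.57 CPM at W2, a ratio of 55.8 (37.1 to 88.3), and Mcpt1 had 45.9 CPM at W5 and 1.78 CPM at W2 (log2 4.08). Both are chymases of mucosal mast cells in the mouse, and their reads can be shared. Cpa3, the mast cell carboxypeptidase, had 8.29 CPM at W5 and 0.342 CPM at W2 (2.79). Mcpt4, a chymase of connective tissue mast cells, had 3.93 CPM at W5 and 0.137 CPM at W2 (2.12). Its CPM ratio of 28.7 (7.7 to 241), with 2 counts at W2, was similar to that of Mcpt1, 25.8 (17.5 to 39.8). Cma1, another chymase of connective tissue mast cells, had 5.89 CPM at W5 and 6.22 CPM at W2 (-0.07). The chymases of connective tissue mast cells thus differed from each other, and the folds do not settle which kind of mast cell was higher. Kit, which interstitial pacemaker cells also express, had 42.7 and 22.7 CPM at W5 and W2 (0.88). Mcpt4, Tpsb2 (1.42), Fcer1a (1.33) and Hdc (1.54), all under 8 CPM in either library, lost their calls with a pseudocount of 5.

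Both the ligand and the receptor of the interleukin 33 pathway were higher. Il33, an alarm cytokine released by damaged barrier cells, had 16.9 CPM at W5 and 3.21 CPM at W2 (log2 2.09), and its receptor Il1rl1 had 30.5 CPM at W5 and 1.71 CPM at W2 (3.54). Arg1 (ENSMUSG00000019987), an arginase of alternatively activated macrophages and other myeloid cells, had 24.5 CPM at W5 and 0.41 CPM at W2, a ratio of 59.7 (27.3 to 164). Type 2 immunity genes as listed had 6 of 13 tested members up and none down, with a median of 0.75. Relative to W0, 4 were higher and 1 lower. The defining cytokines Il4 (1.03 CPM at W5, 1.71 CPM at W2) and Il13 (0.0491 and 0.137 CPM at W5 and W2) failed the level filter. Retnla and Ccl8 were not among the risers, with folds of -0.46 and -0.59. Il4ra, at 101 CPM at W5 and 49.4 CPM at W2 (1.01), lay at the limit and lost its call under 8 of the alternatives.

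Macrophage and monocyte genes had 10 of 17 tested members up, none down and a median of 1.19. Spp1 (osteopontin) had 24.9 CPM at W5 and 0.82 CPM at W2 (log2 3.83), and Gpnmb, a glycoprotein of lysosome-rich macrophages, had 74.5 CPM at W5 and 12.5 CPM at W2 (2.48). Levels at W0 were 1.02 and 26.3 CPM, and both genes were also called against W0. The macrophage receptor Csf1r had 116 CPM at W5, 38.5 CPM at W2 and 97.7 CPM at W0, and Cd68 had 30.6, 10.3 and 20.3 CPM in the same order. Neither was called against W0, and over the whole list 6 members were higher than at W0.

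Plasma cell and B cell genes moved in opposite directions. Plasma cell genes had 7 of 10 tested members up and none down (median 1.23), and B cell genes had 4 of 11 down and none up (median -0.73). Jchain (ENSMUSG00000067149), which joins secreted IgA and IgM, had 4394 CPM at W5 and 599 CPM at W2 (log2 2.87), with 1223 CPM at W0. Derl3, of the protein quality control of secretory cells, had 21.8 CPM at W5 and 3.69 CPM at W2 (2.28). Igha had 8336 CPM at W5 and 3434 CPM at W2 (1.28), but with 5084 CPM at W0 it was not called against that library. Relative to W0, 2 of the 10 plasma cell genes were higher (median 0.68).

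Of the B cell genes, the receptor subunit Cd79b had 20.1 CPM at W5 and 71.6 CPM at W2 (log2 -1.79), and the IgM receptor Fcmr had 5.35 CPM at W5 and 19.3 CPM at W2 (-1.67). Their W0 levels were 35.1 and 7.98 CPM, and no B cell gene was 2-fold lower than at W0. The transcription factors Pax5 (-1.14) and Ebf1 (-1.08) fell as well, and lost their calls with a pseudocount of 5. Cd79a was at 52.8 CPM at W5 and 48.6 CPM at W2 (0.12). The T cell list had 3 of 17 up and none down (median 0.03), with Cd4 at 33.5 CPM at W5 and 12.8 CPM at W2 (1.32) and the pan-T genes Cd3d (0.26), Cd3g (0.74) and Cd3e (-0.49) not called.

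Several Wnt inhibitors and targets rose, while other targets were not called. Of 25 genes, all tested, 12 rose and 1 fell, with a median of 0.85. Wif1 (ENSMUSG00000020218), a secreted protein that binds Wnt ligands, had 95.1 CPM at W5 and 1.37 CPM at W2, a ratio of 69.7 (45 to 114). Notum, the secreted enzyme that removes the lipid from Wnt ligands, had 7.51 CPM at W5 and 0 at W2, at least 36.6-fold higher with a floor of 3 counts in W2 (the lower limit of the counting interval is 29.4). Dkk2, a secreted ligand of the Wnt co-receptors, had 12.2 CPM at W5 and 0.615 CPM at W2 (log2 3.03). The intracellular inhibitor Nkd1 had 101 CPM at W5 and 18 CPM at W2 (2.42), and the membrane inhibitor Apcdd1 had 26.5 CPM at W5 and 4.51 CPM at W2 (2.32). Sfrp1 (1.69) and Dkk3 (1.42), made largely by stroma, also rose, whereas Nkd2 had 7.26 CPM at W5 and 16.5 CPM at W2 and fell by 1.08.

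Of the transcription factors listed, Prox1 had 49.7 CPM at W5 and 2.87 CPM at W2 (log2 3.71), although lymphatic endothelium also expresses it. Sp5, a direct Wnt target, had 7.85 CPM at W5 and 1 count at W2, a ratio of 115 (20.3 to 4568). The stem cell receptor Lgr5 had 27.6 CPM at W5 and 9.97 CPM at W2 (1.38), and Tnfrsf19, a receptor of crypt stem cells, had 19.6 and 4.99 CPM at W5 and W2 (1.78). Axin2, the usual reporter of the pathway, had 53.3 CPM at W5 and 40.1 CPM at W2 (0.40). Myc (-0.52), Sox9 (-0.70), Cd44 (-0.79) and Ephb2 (-0.19) were not called. The wider stem and progenitor list had 3 of 15 up (median 0.10), namely Lgr5, Tnfrsf19 and Prom1 (1.63), and Ascl2 was at 13.5 CPM at W5 and 18.8 CPM at W2 (-0.44). Proliferation genes had none of 23 up and 2 down (median -0.33), with Mki67 at 170 CPM at W5 and 318 CPM at W2 (-0.90) and at 183 CPM at W0.

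**Figure D3:**
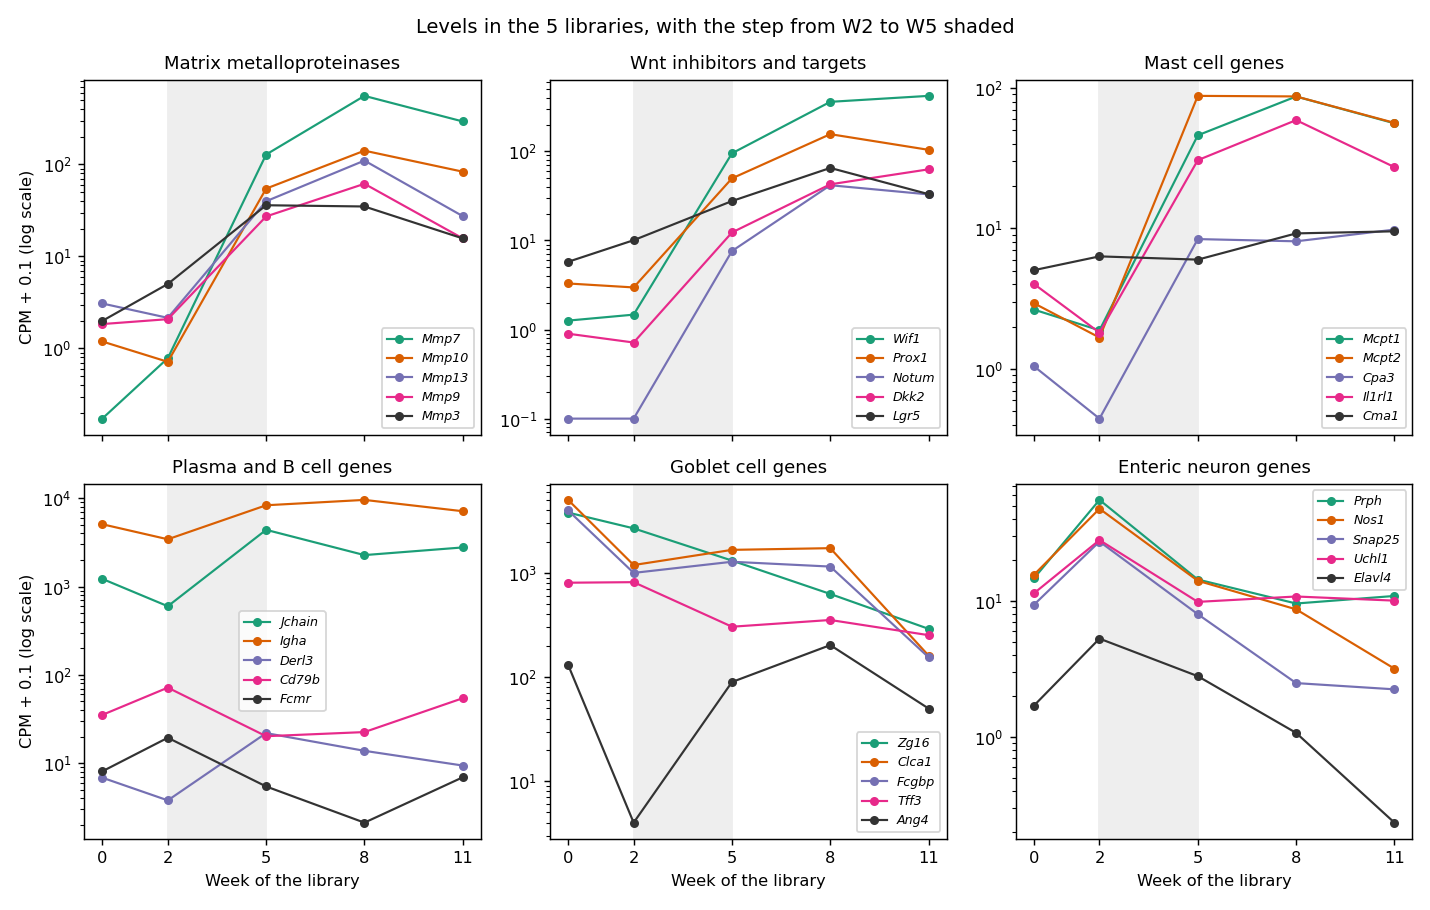
Levels of 5 members of each of 6 gene groups (CPM + 0.1, log scale) against the week of the library, 1 library per point, with the step from W2 to W5 shaded. Mmp7, Wif1 and Mcpt2 were low at W0 and W2 and stayed high at W8 and W11, whereas the enteric neuron genes peaked at W2 and were back near W0 at W5 (Prph at 14.6, 55.4 and 14.3 CPM at W0, W2 and W5).

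H19 (ENSMUSG00000000031) showed the largest rise of all genes named. This imprinted non-coding RNA, made in fetal tissue and mostly silent afterwards, had 87.9 CPM at W5 and 1 count (0.0683 CPM) at W2, a ratio of 1287 with a wide counting interval of 231 to 50877. It was at 0 at W0, 178 CPM at W8 and 22.1 CPM at W11, and its exons hold the microRNA Mir675. Igf2, its neighbour on the same imprinted locus, is listed at 0 in all 5 libraries. Of the insulin-like growth factor list, 5 of 9 tested members rose and 2 fell (median 1.17). Igf1 had 43 CPM at W5 and 9.63 CPM at W2 (log2 2.05), and the binding proteins Igfbp4 (2.13) and Igfbp5 (2.10) rose by similar amounts. The fetal RNA-binding protein Igf2bp3 had 2.99 CPM at W5, 8.4 CPM at W2 and 36.9 CPM at W0, and its fold at W5 against W2 was -1.24. The regenerative list that marks fetal-like epithelium had 3 of 16 up (median 0.24), with Ly6a at 860 CPM at W5 and 1057 CPM at W2 (-0.30), and Clu at 372 and 384 CPM at W5 and W2 (-0.05).

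Fibroblast and matrix genes had 11 of 22 up and none down (median 0.96). Col3a1, the collagen of young scar tissue, had 2540 CPM at W5 and 422 CPM at W2 (log2 2.59), while Col1a1 had 298 CPM at W5 and 180 CPM at W2 (0.72). Grem1, a bone morphogenetic protein inhibitor of the crypt base stroma, had 189 CPM at W5 and 48.9 CPM at W2 (1.93), and Lum, a collagen-binding proteoglycan, had 127 and 33 CPM at W5 and W2 (1.91). Lox, which crosslinks collagen, rose by 1.71. Relative to W0, 6 of these genes were higher. Endothelial genes had 5 of 13 up (median 0.80), among them Emcn (1.65) and Prox1, which is also on the Wnt list. Pecam1 was at 72.2 CPM at W5 and 52 CPM at W2 (0.47). Relative to W0, 3 endothelial genes were higher (median 0.04), and Kdr had 33.5 CPM at W5, 15.6 CPM at W2 and 33.5 CPM at W0.

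Enteric neuron and glia genes had 6 of 13 down and none up, with the lowest list median (-0.82). Prph, an intermediate filament of peripheral neurons, had 14.3 CPM at W5 and 55.4 CPM at W2 (log2 -1.88), and Nos1, the nitric oxide synthase of inhibitory motor neurons, had 14 CPM at W5 and 47.7 CPM at W2 (-1.69). Snap25, of synaptic vesicle release, had 7.9 CPM at W5 and 27.3 CPM at W2 (-1.67), and Uchl1 9.76 and 28 CPM at W5 and W2 (-1.43). The W0 levels of these 4 genes were 14.6, 15.5, 9.29 and 11.3 CPM, close to those of W5, and none of the list was 2-fold lower than at W0. The peptide gene Vip (0.24) was not called.

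Smooth muscle genes had 3 of 13 down and none up (median -0.51). Tagln had 45.8 CPM at W5 and 111 CPM at W2 (-1.27), Hspb1 32.9 and 86.6 CPM at W5 and W2 (-1.37), and the myosin Myh11 1162 and 2528 CPM at W5 and W2 (-1.12), and none of the 3 was called against W0. The summed level of the smooth muscle list was 5877 CPM at W5, 8044 CPM at W2 and 5515 CPM at W0, and that of the nerve list was 223, 342 and 142 CPM in the same order. The amount of muscle wall in each piece of tissue was not measured, and its part in these falls was not tested. Fat cell genes had 3 of 8 up (Adipoq at 9.42 CPM at W5 and 2.66 CPM at W2). Squamous epithelium genes had 4 of 7 up, led by keratins (Krt14 at 15.9 CPM at W5 and 3.89 CPM at W2). Other squamous markers, among them Krt5 (0.196 CPM at W5, 0.0683 CPM at W2) and Trp63, failed the level filter. The summed level of the fat list was 242 CPM at W5, 155 CPM at W2 and 282 CPM at W0. That of the squamous list was 33.9, 7.65 and 8.42 CPM in the same order.

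Epithelial genes gave mixed changes. General epithelial genes had 2 of 12 up and none down (median -0.29): Cldn4, a claudin, had 69.1 CPM at W5 and 10.8 CPM at W2 (log2 2.57), and Cdx2 rose by 1.11. The keratin Krt8 had 11068 CPM at W5 and 8755 CPM at W2 (0.34). Goblet cell genes had 4 of 18 up and 2 down (median 0.40), but against W0 none was higher and 4 were lower (median -0.22). Zg16, the lectin-like mucus protein named in the series title, had 1319 CPM at W5 and 2691 CPM at W2, which is 2.04-fold lower (2.01 to 2.07). Its log2 fold of -1.03 lies at the limit, and it was -0.73 with the GC and length trends removed. Tff3, the goblet trefoil peptide, had 305 CPM at W5 and 818 CPM at W2 (-1.42). The mucin Muc2 (0.44), Clca1 (0.48), Fcgbp (0.36) and Spink4 (0.78) were not called. Clca1 and Fcgbp had 1672 and 1285 CPM at W5, 1195 and 1004 CPM at W2, and 5053 and 4002 CPM at W0.

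Enzymes that build mucin sugar chains had 6 of 20 up and none down (median 0.48). C1galt1c1, the chaperone of the core 1 synthase, rose by 1.11 and Galnt5, which starts chains, by 1.26. The synthase C1galt1 had 170 CPM at W5 and 91.3 CPM at W2 (0.89). Absorptive colonocyte genes had 2 of 25 up and 5 down (median 0.18), against 9.44% up and 4.46% down over all genes tested. Clca4b (ENSMUSG00000074195), of the chloride channel accessory family, had 648 CPM at W5 and 16.5 CPM at W2, a ratio of 39.4 (34.7 to 44.9), while its paralog Clca4a had 123 and 63.6 CPM at W5 and W2 (0.94). The carbonic anhydrase Car4 had 333 CPM at W5 and 1028 CPM at W2 (-1.62). The membrane mucin Muc3 (ENSMUSG00000037390) had 1020 CPM at W5 and 5525 CPM at W2, 5.41-fold lower (5.33 to 5.5), with 1389 CPM at W0. Emp1 had 243 CPM at W5 and 72.3 CPM at W2 (1.73).

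Among the largest falls, Fabp6, an ileal bile acid carrier, had 1.86 CPM at W5 and 29.2 CPM at W2, 15.6-fold lower (11.2 to 22.4), and Rbp2, the retinol carrier of enterocytes, had 4.12 CPM at W5 and 35.9 CPM at W2 (log2 -2.85). Their W0 levels were 7.77 and 21.4 CPM. Xenobiotic metabolism genes had none of 23 up and 3 down (median -0.22), namely Sult1a1 (-1.56), Gstm1 (-1.52) and Gstm3 (-1.31). Ion and water transport genes had 1 of 17 up and 2 down (median 0.08), against 9.44% up and 4.46% down over all genes tested. Enteroendocrine genes had 1 of 10 up (Tph1, 1.28) and 1 down (Pyy, -1.27), and tuft cell genes had 2 of 9 up, with Dclk1 at 7.85 CPM at W5 and 12.9 CPM at W2 (-0.65). The position markers of the posterior Hox list had none of 9 up and 1 down, Hoxb13 at 245 CPM at W5 and 519 CPM at W2 (-1.08), while Hoxa13 was at 56.1 and 39.6 CPM at W5 and W2 (0.49).

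Interferon response genes had none of 19 up and 3 down, with a median of 0.03, against 9.44% up and 4.46% down over all genes tested. Ido1, the interferon-induced enzyme that degrades tryptophan, had 4.37 CPM at W5 and 22.7 CPM at W2 (log2 -2.14), and W0 held 2.98 CPM. Isg15, a ubiquitin-like modifier, had 67.7 CPM at W5, 233 CPM at W2 and 72.5 CPM at W0 (-1.77 at W5 against W2). Ifit2 (0.82), Oas2 (0.87) and Usp18 (0.92) lay above 0 without passing. Relative to W0, 9 of the 19 were higher. Antigen presentation genes of MHC class II had none of 8 up and 2 down (median -0.29), the peptide-loading subunit H2-DMb1 (-1.32) and the invariant chain Cd74 (-1.04), while H2-Aa had 1410 CPM at W5 and 1413 CPM at W2.

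Among the falls were many short transcripts of energy metabolism. Mitochondrial-encoded genes had 1 of 14 up and 2 down (median -0.75). mt-Co1, a core subunit of cytochrome oxidase, had 7202 CPM at W5 and 20905 CPM at W2 (log2 -1.54). mt-Nd6 fell by 1.78, but its annotated exon overlaps mt-Nd5 on the other strand, and the strand setting of the counting is not given. mt-Nd3 went the other way, with 137 CPM at W5, 4.92 CPM at W2 and 12.8 CPM at W0 (4.55). Nuclear-encoded respiratory genes had 1 of 19 up and 4 down (median -0.43). Atp5o, of the ATP synthase stalk, had 5.25 CPM at W5 and 30.4 CPM at W2 (-2.33), but its annotated exons overlap another entry of the same name. Cox6b1, chosen by the size of its fall, had 94.3 and 467 CPM at W5 and W2 (-2.30). Ndufs1, whose exons overlap those of Eef1b2, had 83.4 CPM at W5 and 30.3 CPM at W2 (1.43).

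Folds in this comparison followed transcript length and GC content, as taken from GENCODE M21. The 657 fallers had a median length of 1562 bases, against 3165 bases over all genes tested, and a median GC content of 52.4% against 49.8%. Of the genes in the shortest decile 14.5% fell, and of those in the longest decile 2.72%. Across genes, Spearman's rho with the fold was 0.130 for length and -0.167 for GC content, given as a description of these libraries. With both trends removed, 413 of the 656 fallers with a value and 1244 of the 1389 risers were still called. Tff3, Hspb1, Pyy, Cd74, Jun, Hoxb13 and Zg16 were among the fallers that lost their call. The respiratory list then had 2 members down instead of 4, and the immediate early list 1 instead of 4. The part of RNA quality in these trends was not tested.

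**Figure D4:**
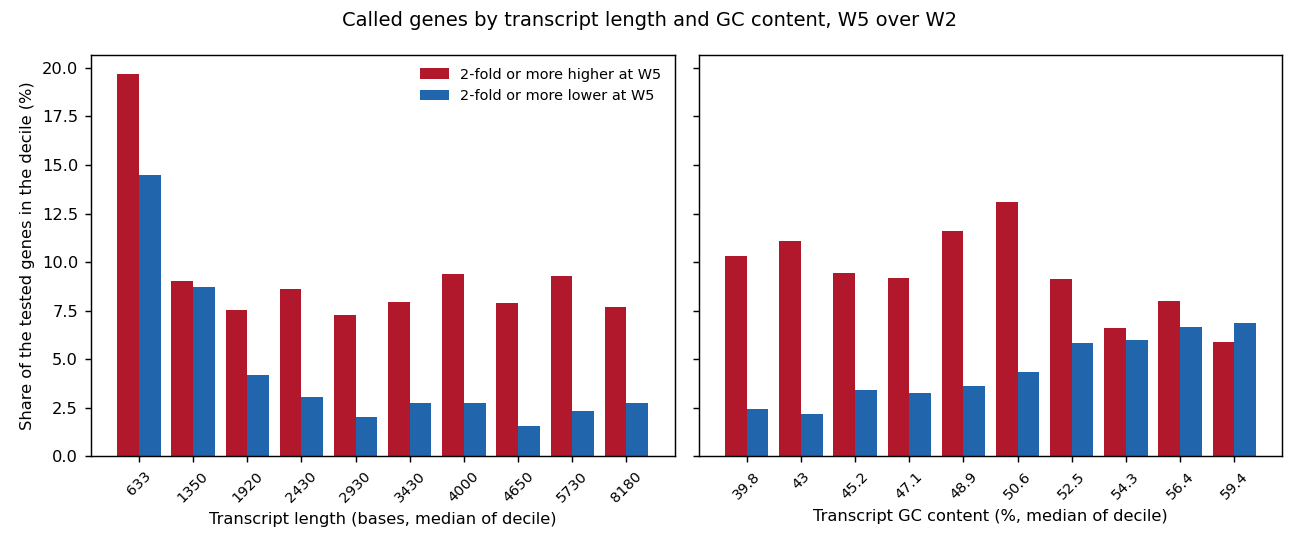
Share of tested genes that were 2-fold or more higher (red) or lower (blue) at W5 than at W2, by deciles of transcript length (left) and of GC content (right), each labelled with its median. The shortest decile holds the largest shares in both directions (19.7% higher and 14.5% lower), and falls become more common toward high GC content (2.45% in the lowest decile and 6.87% in the highest).

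Genes that can follow the time or manner of killing also differed. Clock genes that peak with Dbp had 4 of 7 up and none down (median 1.27), led by Nr1d2 with 92.1 CPM at W5 and 22.2 CPM at W2 (log2 2.00) and Nr1d1 with 25.4 and 7.44 CPM at W5 and W2 (1.64). Of the genes that peak with Bmal1, Npas2 had 9.18 CPM at W5 and 24 CPM at W2 (-1.30). W0 held 51.3 CPM of Nr1d2 and 25.8 CPM of Nr1d1, and no gene of the Dbp list was higher at W5 than at W0 by 2-fold. Immediate early and heat shock genes had none of 15 up and 4 down (median -0.56), with Nr4a1 at 63.2 CPM at W5 and 154 CPM at W2 (-1.27). No killing times are given.

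The remaining metabolic and stress lists are read against 9.44% up and 4.46% down over all genes tested. Fatty acid oxidation genes had 2 of 20 up (median 0.20), Angptl4 (1.67) and Acadvl (1.22). Cholesterol and fatty acid synthesis genes had 2 of 21 up (median 0.60), Idi1 (1.65) and Fdps (1.26). Endoplasmic reticulum stress genes had 2 of 16 up and 1 down (median 0.03), and the plasma cell factor Xbp1 was one of the risers (1.47). Targets of p53, which AOM damage can engage, had 2 of 16 up and 1 down (median 0.37). Among them Cdkn1a was at 102 CPM at W5 and 122 CPM at W2 (-0.26), Trp53inp1 rose by 1.22, and Bax had 8.73 CPM at W5 and 33.9 CPM at W2 (-1.84). Blood genes had 3 of 6 up, with Hbb-bt at 22.2 CPM at W5 and 5.05 CPM at W2. The alpha-globin genes lay on the other side of 0 without passing. Hba-a1 had 3.39 CPM at W5 and 6.08 CPM at W2 (-0.69), and Hba-a2 0.736 and 2.05 CPM at W5 and W2 (-0.81). Of the skeletal muscle and pancreatic enzyme lists only 2 members each were tested and none changed.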

How the data were processed

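RNA sequencing of mouse colon gave 1 library at each of 5 time points, of which W5 and W2 were compared. Libraries were made from TRIzol RNA with a TruSeq kit, per the labels' protocols. The submitters' processing notes list HISAT2 2.2.1, featureCounts and FastQC, with GRCm38 and GRCm39. Neither the strand setting nor the handling of multi-mapped reads is stated. Read counts, as deposited by the authors, stand in the columns headed TPM, and those headed count hold RPKM-like values as deposited by the authors, so the headers were taken to be exchanged.

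Counts were scaled to CPM by library totals. Folds are differences of log2(CPM + 1), which understates changes of low genes, for genes averaging at least 1 CPM over the 5 libraries, and 2-fold was the limit for a call. There is no test and no p-value. Ratio intervals are exact conditional 95% intervals, and a library at 0 was set to 3 counts (0.147 CPM in W5, 0.205 CPM in W2) for lower bounds. Several identifiers had no symbol (118) or a repeated one (62).

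The comparison and the 45 gene lists were chosen with earlier results of these data known. The genes named are Zg16, the 15 strongest rises and falls with at least 5 CPM in either library (leaving out antigen receptor segments, mitochondrial, ribosomal and Y-linked genes, pseudogenes and clone-named loci), the first 2 members of each list, all members of the metalloproteinase, mast, neutrophil, goblet and mitochondrial lists, and up to 6 members of other lists with the largest folds. Other list members named were picked for their role after their values were seen. GC content and length come from the longest transcript in GENCODE M21 (GRCm38). A few list members are not reported here. Steps were tested on simulated counts. Python 3.11.15, numpy 2.4.6, pandas 2.3.3, scipy 1.17.1, statsmodels 0.14.6 and matplotlib 3.10.9 were used.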

Additional observations from a re-analysis of the deposited data

How the results depend on the processing

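No paired analysis was possible because each time point has 1 library, and for the same reason no library could be left out. Against 1389 genes higher and 657 lower, a pseudocount of 5 gave 746 and 337 and the deposited RPKM 729 and 266. By construction both shrink the folds of genes with low values. With RPKM the folds of highly expressed genes also lay higher, with Jchain at 3.0 instead of 2.87 and Myh11 at -0.97 instead of -1.12. The deposited RPKM took the call from Lgr5, Tnfrsf19, Igf1, Lox, Emcn, Mmp12, Csf3r, Nos1, Snap25 and Myh11, among others. Median-of-ratios scaling gave 1020 lower and centring on the median 997. Set against the average of W2 and W0, 894 were higher and 354 lower, and with W0 alone, an alternative chosen after seeing the data along with the removal of the length trend, 275 were lower. These were largely other genes: against W0, 616 of the 1389 risers and 124 of the 657 fallers kept their call. The fold changed sign for 119 of those risers and 92 of those fallers. Counts under the other alternatives were within 1.5 times.

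Of the named genes called higher, 115 of 126 kept the call under median-of-ratios scaling, 121 with GC and length trends removed, 87 with RPKM and 80 against W0; of those called lower, 58 of 58, 42, 35 and 22 did. All 15 of the largest rises kept their call under each alternative but a baseline of W0 or of W0 averaged with W2 (14 of 15 each, Ang4 being lost), and of the 15 largest falls 13 did with RPKM and 10 against W0.

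Against W0 the log2 fold changed sign for Ang4 (-0.55), Ido1 (0.43), Retnlb (-0.91), Bst2 (0.04), Ebf1 (0.07), Sytl2 (-0.11), Tph1 (-0.15), Ube2c (0.34), Tagln (0.33), Gfap (0.30), mt-Nd6 (0.15), Acadvl (-0.06), Nr1d1 (-0.02), B4galnt2 (-0.62) and Slc9a3 (-0.01), and against the W2 and W0 average for Retnlb (-0.13) and B4galnt2 (-0.01). The levels of these genes at W2 and W0 differ, which is what the changed baseline measures. A gene at 0 in W2 could not be told from one at up to 0.205 CPM.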

Other observations

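The genes described here were chosen after their values were seen. Immunoglobulin variable segments, which encode the antigen-binding ends of antibodies, were higher at W5 almost without exception: 165 of 173 tested rose and none fell, with a median log2 fold of 3.11. Their summed level was 8477 CPM at W5, 664.4 CPM at W2 and 3853 CPM at W0. Single segments resemble each other, so reads can be shared between them. Cytosolic ribosomal protein genes had 27 of 84 lower and 1 higher (median -0.55), and with GC and length trends removed 18 were lower. A wider set of nuclear-encoded respiratory chain symbols had 24 of 75 lower and 2 higher (median -0.54), and 16 lower with the trends removed. The summed level of the ribosomal set was 46570 CPM at W5, 62040 CPM at W2 and 48190 CPM at W0. That of the respiratory set was 15310, 21630 and 16640 CPM in the same order, so W5 lay nearer to W0 than to W2 in both. Rps28 was at 75.4 CPM at W5 and 407 CPM at W2, and Rps26 at 149 and 784 CPM at W5 and W2.

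The lipases Pnliprp1 (95 CPM at W5, 2.87 CPM at W2) and Pnliprp2 (41.5 CPM at W5, 1.78 CPM at W2), which are close relatives, were both higher, and both were higher again at W8 (308 and 227 CPM) and W11 (532 and 412 CPM). The pancreatic enzyme genes Cela1 and Clps were at 231 and 8 CPM at W5, and at 430 and 9.15 CPM at W2. Slc30a2, a zinc exporter of secretory cells, had 24 CPM at W5 and 0 at W2, at least 117-fold higher with a floor of 3 counts in W2 (the lower limit of the counting interval is 94.9), and the metallothionein gene Mt4 had 15.4 CPM at W5 and 0.205 CPM at W2 (3 counts), a ratio of 75.2 (25.5 to 367). Mt1 and Mt2, which bind zinc and copper and are induced by metals and stress, went the other way: Mt1 had 37.8 CPM at W5 and 189 CPM at W2, and Mt2 5.5 and 16.1 CPM at W5 and W2. Lyz1, the lysozyme of Paneth cells, had 375 CPM at W5 and 29 CPM at W2, and the alpha-defensin Defa24 14.6 CPM at W5 and 1 count at W2, a ratio of 214 (38.1 to 8484), with reads that can be shared with other copies.

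Tnfrsf11b, the decoy receptor osteoprotegerin, had 35 CPM at W5 and 2.94 CPM at W2, and the proteoglycan gene Spock2 had 235 CPM at W5 and 26.4 CPM at W2. Lgr6, a relative of Lgr5, had 7.51 CPM at W5 and 0 at W2, at least 36.6-fold higher with the same floor (lower limit 29.4). Further genes of neurons fell beside those of the list, among them Nefm (2.7 CPM at W5, 16.2 CPM at W2), whose exons overlap those of Nefl, Npy (1.52 CPM at W5, 9.08 CPM at W2) and Map1b (27.4 CPM at W5, 104 CPM at W2), with W0 levels of 4.79, 0.871 and 25.7 CPM.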
